A study of Mus musculus with 9 samples.

Results

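Hmga2, Mycn and Myc are growth-associated nuclear genes of the embryo, and their transcripts were followed in mouse orofacial tissue on gestation days (GD) 12, 13 and 14. The genes were taken from a list of 4, which also named Hmga1. They were represented by every probe set, a group of short oligonucleotides for 1 transcript, whose array annotation gave exactly 1 of these symbols. This found 4 probe sets for 3 genes: 1 for Hmga2, 2 for Mycn and 1 for Myc, among 10833 single-symbol probe sets for 8251 genes. Hmga1 had 0 such probe sets and was not analysed here. The genes were chosen from earlier results on these same 9 arrays, in which the low GD14 level of Hmga2 and the high GD14 level of Cdkn1a, described further on, had been seen. Their levels and differences between days are therefore a description with no test of their own. Calls in the fit across all probe sets are given as counts and for their dependence on the processing, not as support.

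Each gestation day had 3 one-colour arrays of total RNA from embryonic orofacial tissue, from which face and palate develop. No strain, treatment or genotype is named in the labels. Nor do they state if the 3 samples of a day are separate litters, pools or repeat preparations, so p-values measure only the spread between these arrays. The deposited values are linear intensities that the authors had scaled between arrays.

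HMGA proteins are small chromatin proteins whose AT-hooks bind the minor groove of AT-rich DNA. Hmga2 is active mainly in embryonic and other undifferentiated cells, and mice without it are small, the phenotype behind its synonym pygmy. Its mRNA is a well known target of let-7 microRNAs, whose maturation LIN28 proteins block. MYC and MYCN are basic helix-loop-helix leucine zipper factors that pair with MAX at E-boxes and drive ribosome production, metabolism and cell division. MYCN is used above all in embryonic progenitors and the nervous system, and MYC more widely in proliferating cells.

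The promoters of the members that were lower on later days are shown for the base composition of the Hmga2 window and for a motif in the Mycn window, each of which few promoters share. Both are from RefSeq (GRCm38.p6), both genes lie on the minus strand, and each window is the 250 bases before the gene's start, 5′ to 3′. The Hmga2 window is chr10:120476470-120476719, upstream of a gene annotated on chromosome 10 from 120361268 to 120476469. Capitals mark its longest unbroken run of pyrimidines, 23 bases. The Mycn window is chr12:12941837-12942086, upstream of a gene annotated on chromosome 12 from 12936093 to 12941836. Capitals mark both matches to TTTGGCGC, letters typical of sites for E2F factors, which drive entry into S phase and are known to act on human MYCN.
Hmga2: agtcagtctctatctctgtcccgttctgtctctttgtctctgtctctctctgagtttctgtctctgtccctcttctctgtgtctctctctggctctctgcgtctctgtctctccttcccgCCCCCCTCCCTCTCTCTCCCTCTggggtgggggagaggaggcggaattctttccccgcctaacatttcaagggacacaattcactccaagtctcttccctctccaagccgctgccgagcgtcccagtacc
Mycn: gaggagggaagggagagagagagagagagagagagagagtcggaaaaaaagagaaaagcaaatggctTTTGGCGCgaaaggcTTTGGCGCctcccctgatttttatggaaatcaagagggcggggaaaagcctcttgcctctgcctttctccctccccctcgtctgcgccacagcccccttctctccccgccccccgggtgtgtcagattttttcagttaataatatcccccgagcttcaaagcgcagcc

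Pyrimidines made up 70.8% of the Hmga2 window, a share reached by 0.414% of the 32851 RefSeq promoter windows of the same length, whose median was 50%. The Mycn window had 47.6%. The matches to TTTGGCGC in the Mycn window begin 183 and 168 bases before the start, and do not overlap. On either strand, this motif was found in 0.417% of all windows and not in the Hmga2 window. CACGTG, the E-box bound by MYC with MAX, which reads the same on both strands, was found in neither window and in 6.02% of all windows. A match is a description of letters and does not show that a factor binds there.

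The let-7 microRNAs are shown because Hmga2 is their classic target. Of 10 let-7 names in the RefSeq table, 9 share the seed GAGGUAG at bases 2 to 8, in capitals below, and let-7j has GAGGUAU. Their levels were not measured on these arrays.
mmu-let-7a-5p: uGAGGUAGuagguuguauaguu
mmu-let-7b-5p: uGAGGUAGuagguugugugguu
mmu-let-7g-5p: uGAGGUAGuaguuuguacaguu

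Hmga2 was the member with the widest range across the days. Its intensity was 1245, 924 and 1184 on the GD12 arrays, 406, 302 and 621 on the GD13 arrays, and 187, 176 and 285 on the GD14 arrays. Every GD12 array was above every GD13 array, and every GD13 array was above every GD14 array. The means were 1118 ± 171 on GD12, 443 ± 163 on GD13 and 216 ± 60.1 on GD14 (SD, n = 3 each). In tissue RNA, fewer cells that express a gene and less RNA per cell cannot be told apart.

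The log2 difference of Hmga2, on the log2(intensity + 3) scale, was -2.38 (SE 0.29) for GD14 minus GD12, a 5.19-fold lower level. Among 9316 tested probe sets, 3 had a more negative difference. The first daily step, GD13 minus GD12, was -1.38 (SE 0.29), and 17 probe sets had a more negative value. The second step, GD14 minus GD13, was -0.996 (SE 0.29), with 72 probe sets more negative. The second step minus the first was 0.38 (SE 0.51), so the daily steps differed by less than the SE of that difference. Hmga2 thus stood at successively lower levels on both later days.

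Within each replicate number the Hmga2 difference for GD14 minus GD12 was -2.72, -2.37 and -2.04. RNA quality was read from the actin controls, as the signal near the transcript's 3′ end over that near its 5′ end. On each day this ratio was lowest on array 3. On GD13 and GD14 the third array also had the highest Hmga2 value of its day, while on GD12 it was the middle one. The actin ratio was 1.54, 1.76 and 1.42 on the GD12 arrays, 2.09, 2.23 and 1.25 on the GD13 arrays, and 2.44, 2.29 and 1.37 on the GD14 arrays. With the log2 of this ratio in the model the Hmga2 difference for GD14 minus GD12 was -2.06, and with the third array of each day left out, an alternative chosen after the data were seen, it was -2.54.

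Mycn was lower on GD13 and GD14 than on GD12. Its brighter probe set had 168, 165 and 131 on the GD12 arrays, 89.2, 116 and 92.7 on the GD13 arrays, and 91.7, 98.2 and 86.6 on the GD14 arrays. All GD12 arrays lay above all later ones, and the GD13 and GD14 arrays overlapped. The means were 155 ± 20.4 on GD12, 99.4 ± 14.8 on GD13 and 92.2 ± 5.81 on GD14 (SD, n = 3 each).

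The log2 difference of Mycn was -0.72 (SE 0.17) for GD14 minus GD12, a 1.65-fold lower level. The first daily step was -0.62 (SE 0.17) and the second -0.10 (SE 0.17). The second step minus the first was 0.53 (SE 0.29). Within the replicate numbers GD14 minus GD12 was -0.85, -0.73 and -0.58, lower in all 3. The dimmer Mycn probe set lay between 0.2 and 10.1 on all arrays, under the filter intensity of 10.4, and was not tested. The Mycn values thus rest on 1 probe set.

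Myc had higher means on both later days, and its GD14 arrays overlapped those of GD12. Its intensity was 30.8, 59.1 and 47.3 on the GD12 arrays, 63.6, 71.2 and 68.2 on the GD13 arrays, and 75, 79 and 54.2 on the GD14 arrays. The GD13 arrays lay above all GD12 arrays, while the third GD14 array fell within the GD12 range. The means were 45.7 ± 14.2 on GD12, 67.7 ± 3.83 on GD13 and 69.4 ± 13.3 on GD14 (SD, n = 3 each). The log2 difference for GD14 minus GD12 was 0.60 (SE 0.24), a 1.51-fold higher level, and within the replicate numbers it was 1.21, 0.40 and 0.19. The first step was 0.58 (SE 0.24) and the second 0.02 (SE 0.24). Myc is annotated on chromosome 15 from 61985341 to 61990361.

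**Figure D1:**
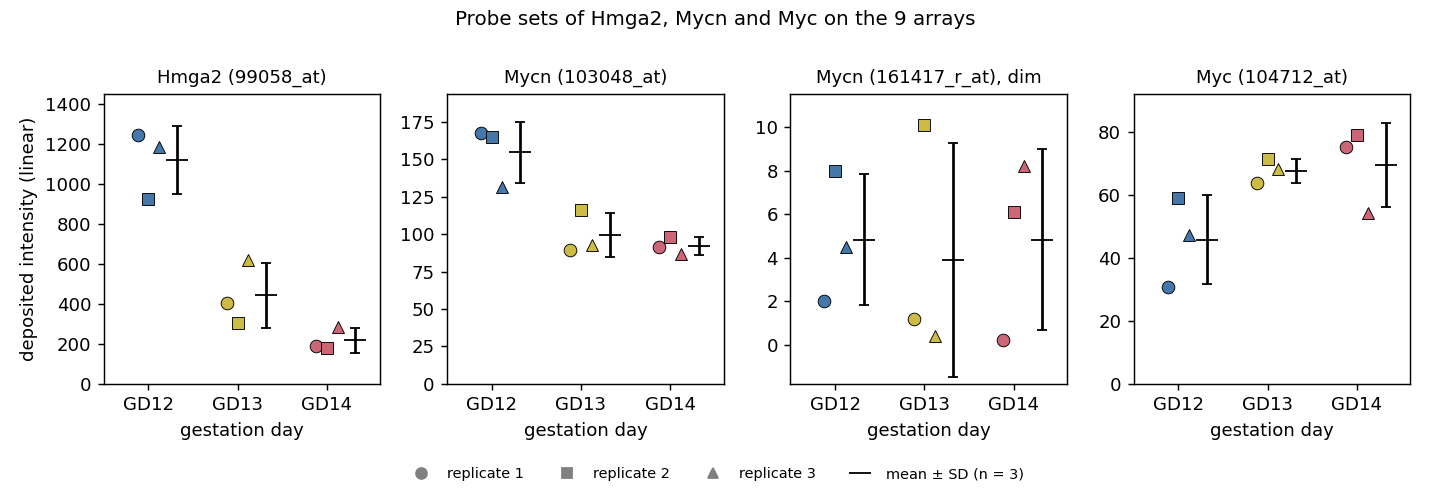
Deposited intensity (linear axis) of each probe set of Hmga2, Mycn and Myc on the 9 arrays by gestation day, with 1 point per array, its shape giving the replicate number, and a bar for the mean ± SD (n = 3). Hmga2 is lower on each later day, Mycn is lower on GD13 and GD14 than on GD12, Myc overlaps between GD12 and GD14, and the dim Mycn probe set stays between 0.2 and 10.1.

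In limma across all probe sets, 2 of the 3 tested member probe sets, those of Hmga2 and Mycn, had adjusted p under 0.05 for GD14 against GD12. In that comparison 4.3% of all tested probe sets were called in either direction, and 1.06% of all tested probe sets were called lower. The 2 members were both lower, and because the members were chosen with these values known nothing is read from this share. The values of the 2 days did not overlap for the same 2 members, and for 22.3% of all tested probe sets. For GD13 against GD12, 0 of 3 members were called, against 0.644% of all probe sets. All 3 had an unadjusted p under 0.05, as did 1024 of the 9316 tested probe sets. The values of these days did not overlap for 3 of 3 members and for 18.5% of all probe sets. For GD14 against GD13, 0 of 3 were called, against 0.0429% of all probe sets. In this comparison 1 member had an unadjusted p under 0.05, as did 669 of the 9316 tested probe sets. The values of 1 member, Hmga2, did not overlap, as in 13% of all probe sets.

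The Hmga2 call for GD14 against GD12 held in all 21 alternatives, with log2 differences from -2.59 to -2.06. The Mycn call lay close to the threshold and held in 8 of 21, with log2 differences from -0.83 to -0.66. It ended without GD12 replicate 1 or 2, without any single GD13 or GD14 array, with the third array of each day left out, with median scaling, with 1 added in place of 3, with no filter and with only the 2 days in the fit. For GD13 against GD12, Hmga2 was called in 5 of 21 alternatives. They were the replicate number as a block, the filter at the median, trend and robust variances, array weights and the actin ratio in the model. The block raised the number of probe sets called for GD14 against GD12 to 621, against 401 without it.

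**Figure D2:**
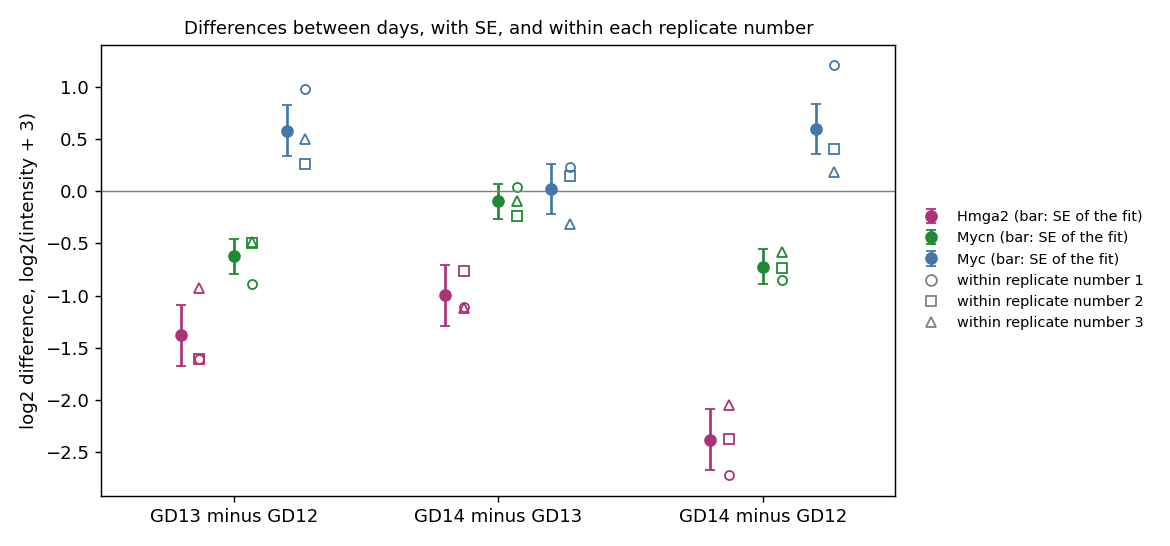
Log2 differences between days for Hmga2, Mycn and Myc on the log2(intensity + 3) scale, with filled points for the fit, bars for its SE, and open symbols for the difference within each replicate number. Hmga2 is below 0 in every comparison and number, Mycn is below 0 against GD12 in every number, and Myc is above 0 against GD12 in every number.

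The genes whose pattern over the 9 arrays was most like that of each member were ranked by Pearson correlation of log2 values among 8383 other tested single-symbol probe sets. These are the highest of many values across arrays that share day and replicate number, and describe likeness only. Nearest to Hmga2 were the chemokine gene Cxcl12 (r = 0.97), the embryonic globin Hba-x (0.97), Cbfb, the partner of RUNX factors (0.97), and Agap1, an ARF GTPase-activating protein (0.97). Cxcl12 had 260 ± 21.7 on GD14, against 441 ± 42.8 on GD12 (SD, n = 3 each). Hba-x, a marker of primitive red cells, had 440 ± 47.2 on GD14, against 4115 ± 637 on GD12 (SD, n = 3 each). Nearest to Mycn were Wac (0.98), the ubiquitin-conjugating enzyme gene Ube2d2a (0.98), Trim59 (0.96) and Dcx, a microtubule protein of young neurons (0.95). Dcx had 62.8 ± 2.86 on GD14, against 120 ± 33.9 on GD12 (SD, n = 3 each). Nearest to Myc were Tbc1d15 (0.95), the glycosylation enzyme gene Galnt3 (0.94), the elongation factor gene Ell2 (0.94) and the tuftelin gene Tuft1 (0.93). Among the members, r over the 9 arrays was 0.76 for Hmga2 and Mycn, -0.77 for Hmga2 and Myc, and -0.65 for Mycn and Myc.

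Genes that work with or downstream of the members were then set beside them in 7 lists. For GD14 against GD12, 4.59% of 6861 tested genes were called, 3.61% as higher and 0.977% as lower, and the median log2 difference of all genes was -0.01. Of 88 genes on the lists, 3 were called higher and 2 lower, a share of 5.68%. An unadjusted p under 0.05 was found for 6 list genes higher and 7 lower. Among the 9316 tested probe sets it was found for 1628, in either direction.

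Genes of the let-7 pathway had 4 tested members of 16 listed, and 0 were called in limma. Of these, 2 had an unadjusted p under 0.05, as did 1628 of the 9316 tested probe sets, and all 4 had negative differences. Their median log2 difference was -0.79. Lin28a and Lin28b had no single-symbol probe set and were not analysed here. Igf2bp1, an mRNA-binding protein of embryonic cells and itself a let-7 target, had 93.0, 102 and 132 on the GD14 arrays, against 429, 385 and 145 on the GD12 arrays. The days did not overlap, but the third GD12 array lay near the GD14 values. Its log2 difference was -1.40 (SE 0.38, adjusted p = 0.0868). Dicer1, the enzyme that cuts microRNA precursors, had 120, 108 and 109 on the GD14 arrays, against 206, 244 and 148 on the GD12 arrays, with a log2 difference of -0.78 (SE 0.20, adjusted p = 0.062).

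Without GD12 replicate 3, Igf2bp1 was called lower (log2 -1.88, adjusted p = 0.0083), and so was Dicer1 (log2 -0.98, adjusted p = 0.0271). With the third array of each day left out Igf2bp1 was called (log2 -2.03, adjusted p = 0.0144) and Dicer1 was not (log2 -0.95, adjusted p = 0.052). Dicer1 was called lower with the replicate block (adjusted p = 0.0369) and Igf2bp1 was not (adjusted p = 0.112). With the actin ratio in the model Dicer1 was called (adjusted p = 0.0474) and Igf2bp1 was not (adjusted p = 0.154). Both were called with the filter at the median, with trend and robust variances and with array weights. Neither was called in the remaining alternatives. Igf2bp1 and Dicer1 were named after their values were seen. Ago2, the slicing Argonaute, had 96.2, 96.8 and 266 on the GD14 arrays, against 200, 236 and 284 on the GD12 arrays (log2 -0.79, SE 0.46, adjusted p = 0.432). The third array of each day stood above the others of its day for Ago2, and with those 3 arrays left out its log2 difference was -1.14 (adjusted p = 0.0334). With the actin ratio in the model it was -0.24 (adjusted p = 0.529), so the size of the Ago2 difference depended on how these arrays were treated. Tut7, a uridylyltransferase that acts on let-7 precursors, had 178 ± 13.2 on GD14 and 188 ± 25.9 on GD12 (SD, n = 3 each).

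Of 5 tested high mobility group proteins other than HMGA, 1 was called lower and 0 higher, with a median log2 difference of -0.36. Over all tested genes 0.977% were called lower, and the median was -0.01. Hmgb3, an HMG-box protein of embryonic and stem cells, fell to 1977, 1783 and 1793 on the GD14 arrays, against 3083, 3347 and 3933 on the GD12 arrays. These groups did not overlap, and the log2 difference was -0.89 (SE 0.16, adjusted p = 0.0156). The call ended without GD14 replicate 1 (adjusted p = 0.0509), without GD14 replicate 2 (adjusted p = 0.061), with only the 2 days in the fit (adjusted p = 0.052) and with the third array of each day left out (adjusted p = 0.0663).

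The MAX network, the dimerization partners and antagonists of MYC proteins, had 0 calls in limma among 10 tested genes, 1 at an unadjusted p under 0.05, and a median log2 difference of -0.05. Mxd4, a MAX partner that represses E-box genes, had 423 ± 139 on GD14 and 462 ± 10.7 on GD12, and the brighter probe set of the corepressor Sin3b had 702 ± 18.8 on GD14 and 743 ± 49.3 on GD12 (SD, n = 3 each). The Sin3b probe sets disagreed in sign, with log2 differences of -0.08 (adjusted p = 0.832) for the brighter and 1.14 (adjusted p = 0.307) for the other. Of 11 genes for cofactors and turnover of MYC proteins, 1 was called lower and 0 higher, against 0.977% of all tested genes called lower. It was Huwe1, a ubiquitin ligase that acts on MYC and MYCN proteins, with 225 ± 30.0 on GD14 and 349 ± 10.5 on GD12 (SD, n = 3 each, log2 -0.64, SE 0.15, adjusted p = 0.0446). The Huwe1 call held in 8 of 21 alternatives and ended with median scaling (adjusted p = 0.0889), with no filter (adjusted p = 0.0843) and with only the 2 days in the fit (adjusted p = 0.13). It also ended without any single array, with the highest adjusted p of these at 0.138 without GD12 replicate 1 or GD14 replicate 2, and with the third array of each day left out (adjusted p = 0.145).

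Growth genes induced by MYC proteins had 0 calls in limma among 40 tested genes, where 1 higher and 2 lower had an unadjusted p under 0.05. Their median log2 difference was -0.12, with 28 negative and 12 positive values. The brightest, named by rule, were Ran, a GTPase of nuclear transport, with 5692 ± 1474 on GD14 and 7322 ± 783 on GD12, and Npm1, the nucleolar protein nucleophosmin, with 2876 ± 272 on GD14 and 3397 ± 224 on GD12 (SD, n = 3 each). RefSeq promoter windows were found for 32 of the 40, and 9 of them held CACGTG in the 250 bases before a start, as did 10.2% of the tested genes with a window. This share of 28.1% describes textbook targets and was not tested.

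Genes known to be repressed by MYC had 3 genes called higher and 0 called lower among 9 tested. Of all tested genes, 3.61% were called higher and 0.977% lower. The high GD14 level of Cdkn1a had been seen before the list was written, so nothing is read from the count. Their median log2 difference was 0.00, with 4 negative and 5 positive values. Cdkn1a, the cell cycle inhibitor p21, rose to 227, 224 and 183 on the GD14 arrays, against 78.1, 66.4 and 45.0 on the GD12 arrays. Its log2 difference was 1.72 (SE 0.21, adjusted p = 0.00273). Ndrg1, a growth arrest gene of differentiating cells named for repression by MYCN, rose to 294, 338 and 242 on the GD14 arrays, against 104, 108 and 116 on the GD12 arrays (log2 1.38, SE 0.16, adjusted p = 0.00263). Other probe sets were also called higher for Cdkn1a (log2 1.90, adjusted p = 0.0233) and Ndrg1 (log2 1.0, adjusted p = 0.0123). Both calls held in all 21 alternatives, which refit the same arrays.

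Cebpa, a factor of differentiation in fat, liver and epidermis, rose to 272 ± 23.5 on GD14, against 144 ± 26.9 on GD12 (SD, n = 3 each, log2 0.91, SE 0.18, adjusted p = 0.0234). Its call ended without GD12 replicate 1 or 2 and without GD14 replicate 1 or 2, with the highest adjusted p at 0.0835 without GD14 replicate 2, with only the 2 days in the fit (adjusted p = 0.0739) and with the third array of each day left out (adjusted p = 0.0611). With the replicate block, Ndrg2, a relative of Ndrg1 named here after its values were seen, was also called higher (adjusted p = 0.0225). Myc itself had a positive difference over the same days and Mycn a negative one, and the genes on this list were not assigned to either factor.

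Genes linked to HMGA2 had 0 calls in limma among 9 tested genes, 1 at an unadjusted p under 0.05, and a median log2 difference of 0.27. Twist1, a mesenchymal transcription factor, had 1241 ± 72.7 on GD14 and 1557 ± 210 on GD12, and the imprinted zinc finger gene Plagl1 had 975 ± 267 on GD14 and 592 ± 151 on GD12 (SD, n = 3 each). For GD13 against GD12 and for GD14 against GD13, 0 genes of any of the 7 lists were called in limma. In the let-7 list 3 genes had an unadjusted p under 0.05 for GD13 against GD12 and 0 for GD14 against GD13. Among the 9316 tested probe sets the numbers were 1024 and 669.

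**Figure D3:**
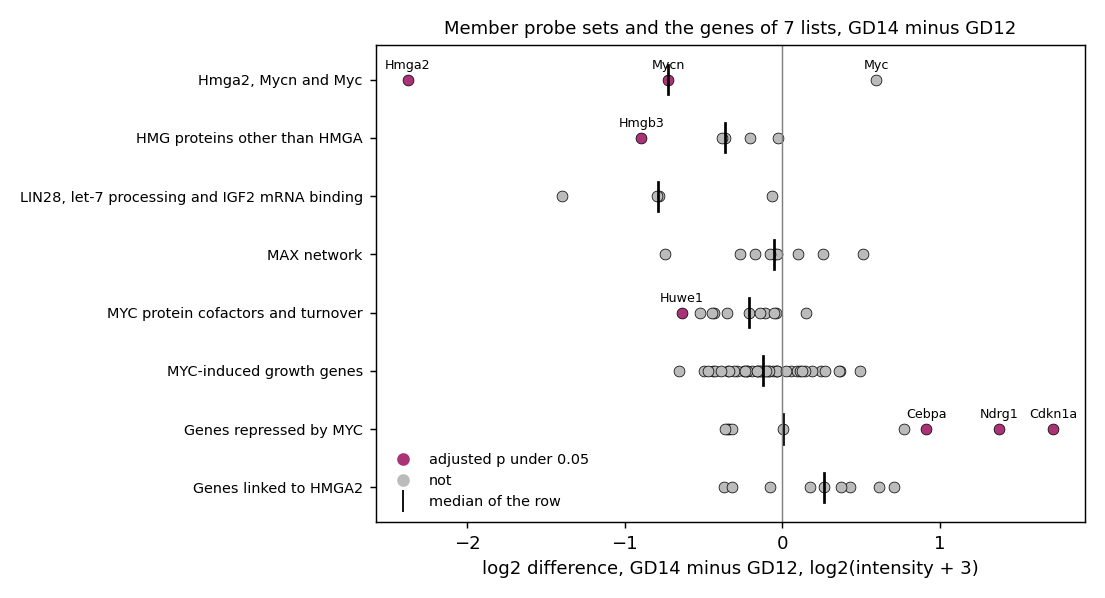
Log2 difference of GD14 minus GD12 for the tested probe sets of Hmga2, Mycn and Myc and for the brightest probe set of each gene on the 7 lists, 1 point per gene, coloured where adjusted p was under 0.05, with a line at the median of each row. The MYC-induced growth genes lie between -0.65 and 0.50 with 0 calls, while Cdkn1a, Ndrg1 and Cebpa stand to the right of the other genes repressed by MYC.

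**Figure D4:**
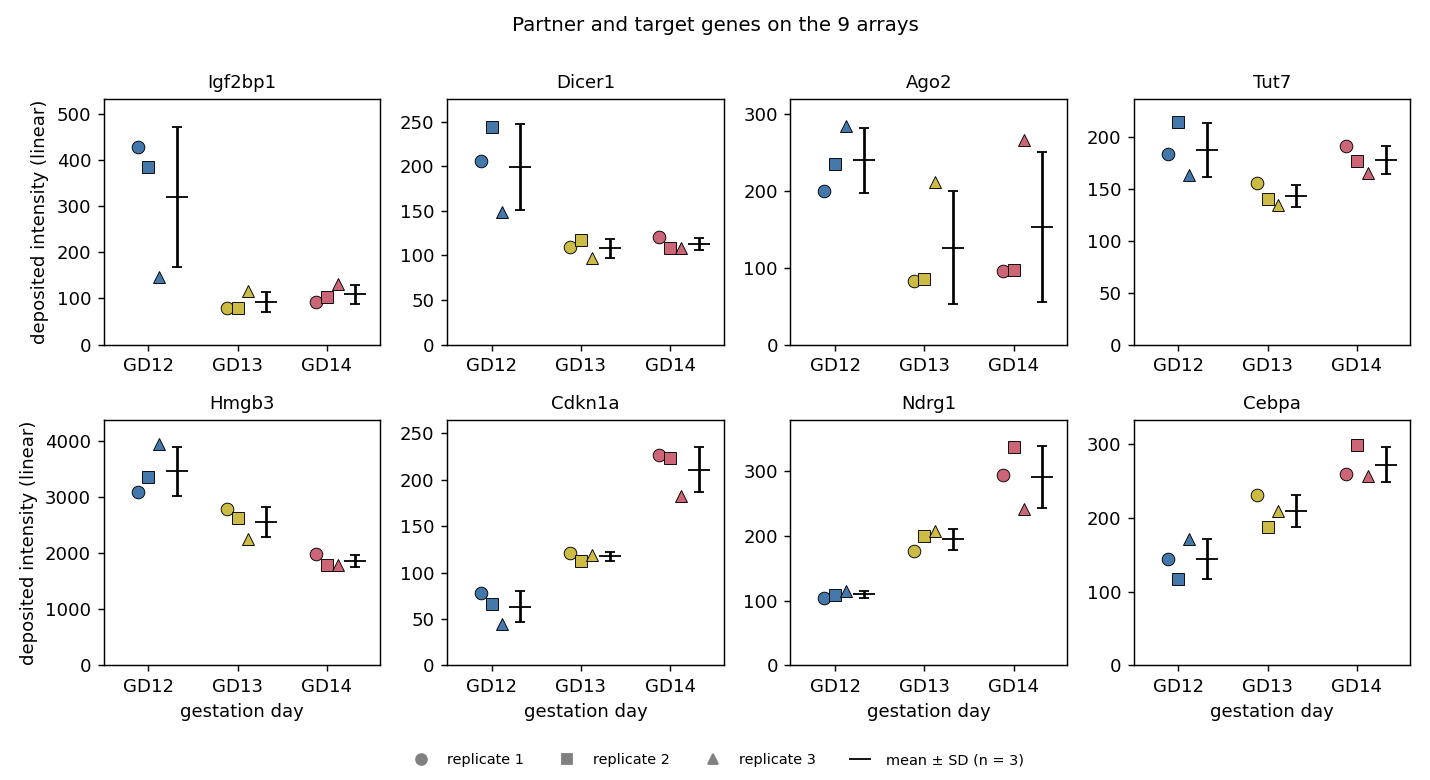
Deposited intensity (linear axis) on the 9 arrays of the 4 tested let-7 pathway genes and of 4 called genes of other lists, with 1 point per array, its shape giving the replicate number, and a bar for the mean ± SD (n = 3). The third GD12 array of Igf2bp1 sits at 145, apart from the others of its day. The third arrays of Ago2 sit apart at 211 on GD13 and 266 on GD14. On GD12 the third array of Ago2, at 284, is the highest of its day. Hmgb3, Cdkn1a, Ndrg1 and Cebpa, which were called for GD14 against GD12 on these same arrays, each separate the 3 days. Values of GD12 and GD14 did not overlap for 22.3% of all tested probe sets.

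Summed levels of cell type markers differed over the same days, and their part in the values of the members was not tested. Beside the counts of called markers below, 3.61% of all tested genes were called higher for GD14 against GD12 and 0.977% lower. Summed intensity of 7 of 8 listed erythroid markers, including the embryonic globins, was 22459 to 28623 on GD12, 18765 to 20940 on GD13 and 14625 to 18492 on GD14, with 3 of 6 tested called lower and 1 higher for GD14 against GD12. The erythroid markers moved in opposite directions. Hbb-y was 9326 to 12412 on GD12 and 3013 to 3497 on GD14, and Hba-x and Hbb-bh1 were also lower. Hbb-b2 was 2117 to 2443 on GD12 and 4144 to 4565 on GD14, Alas2 was also higher, and Hba-a1 overlapped between these days. The 10 neuronal markers summed to 2880 to 4893 on GD12, 1993 to 3189 on GD13 and 1752 to 2312 on GD14, with 2 of 9 called lower. The 5 of 6 neural progenitor markers summed to 1263 to 1546 on GD12, 961 to 1184 on GD13 and 765 to 1181 on GD14, with 0 called in limma. These markers also differed among themselves. Fabp7 was 467 to 799 on GD12 and 96.9 to 324 on GD14, and Dcx, also a gene of young neurons, was lower too. Nes was higher, at 284.7 to 293.5 on GD12 and 309 to 340.5 on GD14, and Sox2 and Pax6 overlapped between these days. Facial mesenchyme was present on every day, with 6 of 8 markers summing to 3076 to 3689 on GD12, 2660 to 2748 on GD13 and 2479 to 2606 on GD14 and 1 called lower, Msx1. Summed markers of several cell types were higher on GD14. Summed intensity of 2 of 6 bone markers was 136 to 182 on GD12, 1215 to 1624 on GD13 and 2066 to 3292 on GD14, and both were called higher. For the 8 skeletal muscle markers it was 1008 to 1252 on GD12, 1337 to 1626 on GD13 and 2199 to 3363 on GD14, with 5 called higher. The 6 macrophage markers summed to 370 to 400.3 on GD12, 419 to 468 on GD13 and 720 to 884 on GD14, with 4 of 5 tested called higher. The 10 epithelial markers summed to 617 to 647 on GD12, 798 to 866 on GD13 and 966 to 1071 on GD14, with 2 of 7 tested called higher. The epithelial markers differed among themselves. All GD14 values of Krt8, Krt18, Krt19 and Epcam lay above those of GD12, while Cdh1, Cldn4 and Trp63 overlapped between these days. Krt8 was 116 to 145 on GD12 and 253 to 337 on GD14, and Trp63 was 104 to 126 on GD12 and 93.1 to 116 on GD14. The 6 endothelial markers summed to 488 to 544 on GD12, 414 to 435 on GD13 and 492 to 569 on GD14, with 0 called in limma. The epithelial keratin Krt15 lay under the filter intensity on every array, and 0 listed markers of the other types did.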

How the data were processed

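Total RNA of 9 samples had been hybridized to one-colour arrays. The deposited intensity values were scaled by the authors to a common level: trimming 2% of probe sets at either end left a mean of 150.1 on each array. Image software and array handling are not given in the sources used here. Intensities, with 3 added, were taken to log2. Of 12422 non-control probe sets, the 9316 with mean log2 above the 25th percentile (an intensity of 10.4) entered limma (version 3.58.1, R 4.3.3) in a model of 3 day means over 9 arrays (6 residual and 2.85 prior degrees of freedom), with Benjamini-Hochberg adjustment and a threshold of 0.05. The RefSeq table (GRCm38.p6), used for names, held the gene IDs of 10817 of the 10833 single-symbol probe sets and changed 0 symbols. The coordinates printed are those of that build. Fits were tested on simulated data with independent noise on each array, which leaves out any pairing of arrays. Python 3.11.15 prepared annotation and plots. Array medians lay between 47.1 and 56.9, 0 array pairs were identical, and the number of arrays limits the precision.

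Members and lists were chosen with earlier results of these data known. Lists came from textbook knowledge, each gene by its brightest tested probe set. Per list, the text names at most 4 called genes, by smallest adjusted p, or the 2 brightest where none was called, and per member the 4 genes of most similar pattern. Deviations from day means correlated at 0.19 to 0.42 between arrays of the same replicate number and at -0.29 to -0.02 between different numbers, so the numbers were taken to pair arrays. The deviations of a day sum to 0, so the negative values follow from the positive ones and are not separate support. The fit without a block was kept as the reported one, because the labels do not say what a number marks. Its SEs and calls therefore leave this pairing out. With the block the SE of the Hmga2 difference for GD14 minus GD12 was 0.18, against 0.29 without it. Alternatives covered normalization, the added value, the filter, variance models, array weights, the block, the actin ratio and omitted arrays.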

Additional observations from a re-analysis of the deposited data

How the results depend on the processing

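The Hmga2, Mycn and Myc log2 differences for GD14 minus GD12 kept their sign in all 21 alternatives, over ranges of -2.59 to -2.06 for Hmga2, -0.83 to -0.66 for Mycn and 0.36 to 0.86 for Myc. Leaving out single arrays gave -2.59 to -2.25 for Hmga2, -0.83 to -0.66 for Mycn and 0.36 to 0.79 for Myc. The near-zero GD14 minus GD13 differences kept their sign in 20 of 21 alternatives for Mycn and 17 of 21 for Myc.

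Counts of called probe sets moved more, and the cause was not tested. For GD14 against GD12, 401 were called, against 617 with array weights, 227 with only the 2 days in the fit, 178 to 394 with single arrays left out (178 without GD14 replicate 1, 215 without GD14 replicate 2, 223 without GD12 replicate 1 and 261 without GD12 replicate 2), and 286 without the third arrays. For GD13 against GD12, 60 were called, against 35 with no filter, 94 with the filter at the median, 115 with trend and robust variances, 201 with array weights, 31 with only the 2 days, 17 to 59 with single arrays left out and 10 without the third arrays. For GD14 against GD13, 4 were called (75% higher), against 2 with quantile normalization (50% higher), 2 with 1 added, 16 with 11 added, 0 with no filter, 19 with the filter at the median, 26 with trend and robust variances, 11 with array weights, 2 with only the 2 days, 0 to 4 with single arrays left out and 0 without the third arrays. Beside these low counts, 669 had an unadjusted p under 0.05. On the 7 lists 5 genes were called, against 8 with the filter at the median, 2 with only the 2 days, 2 to 6 with single arrays left out (2 without GD14 replicate 1 or 2, and 3 without GD12 replicate 1 or 2) and 4 without the third arrays.

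The replicate block, used because same-numbered arrays deviated together, gave 621 calls for GD14 against GD12, of which 387 were among the 401, and 7 genes on the lists. It changed no other call of a member or list gene than those given for Hmga2, Dicer1 and Ndrg2. Dim probe sets such as the second one of Mycn lie near background, and Hmga1, Lin28a and Lin28b were not measured by single-symbol probe sets, so nothing is said of them.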
